A study of Mus musculus with 56 samples.

Results

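The genes described here are the 3 TGFβ ligand genes Tgfb1, Tgfb2 and Tgfb3, 4 genes for receptors and co-receptors of these ligands, Tgfbr1, Tgfbr2, Tgfbr3 and Eng, and Acvr1b, which encodes a related type I receptor. They were taken by name from the 20314 genes of the deposited expression table, and all 8 passed the filter on low values together with 13754 genes in all. The table holds 56 RNA-sequencing samples of 7 epithelial lines derived from mammary tumors of female MMTV-PyMT mice on the FVB/N background, in which the mammary tumor virus promoter drives the polyoma middle T oncogene. The lines differ in β-catenin: fl/fl carries floxed alleles and no mutation, D164A/fl, deltaC/fl and dm/fl carry a mutated allele beside a floxed allele, and in D164A/-, deltaC/- and dm/- the floxed allele was removed with an adenovirus that delivers Cre and GFP, followed by sorting. D164A is a point mutation that abolishes the binding of the co-factors Bcl9 and Bcl9L, whereas the labels do not explain the deltaC and dm alleles. Titles and mutation tags name these β-catenin lines, but the treatment protocol in the labels names lines of Pygo2 genotypes, and the titles were followed here. Each line was cultured in 4 conditions with 2 replicates each, 2 of them in a Wnt3a experiment (no addition, or 100 ng/ml Wnt3a during 3 days) and 2 in a TGFβ experiment (no addition, or 2 ng/ml TGFβ during 4 days). Whether replicates are separate lines or cultures of 1 line is not stated. The p-values therefore measure only the spread between replicates within a condition, and a genotype and a line cannot be told apart.

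TGFβ ligands are secreted in a latent form and, once released, bind the type II receptor TGFBR2, which recruits and phosphorylates the type I receptor TGFBR1 (ALK5). The activated type I receptor phosphorylates SMAD2 and SMAD3, which enter the nucleus with SMAD4. TGFBR3 (betaglycan) and endoglin, the product of Eng, are co-receptors that present ligand, and betaglycan is known to be important for the binding of TGFβ2. Acvr1b encodes ALK4, the type I receptor for activins, which signals through the same SMADs. In mammary epithelium, TGFβ is known for growth arrest and for epithelial-mesenchymal transition (EMT).

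In the GRCm38 assembly, Tgfb1 lies on chromosome 7 (25687002 to 25705077), Tgfb2 on chromosome 1 (186622787 to 186709697) and Tgfb3 on chromosome 12 (86056743 to 86079041). Tgfbr1 lies on chromosome 4 (47353222 to 47414926), Tgfbr2 on chromosome 9 (116087695 to 116175363) and Tgfbr3 on chromosome 5 (107106567 to 107289629). Acvr1b lies on chromosome 15 (101174072 to 101213684) and Eng on chromosome 2 (32646595 to 32682669). RefSeq promoter sequences of GRCm38.p6 matched 6 of the 8 genes, Tgfb1, Tgfb2, Tgfbr1, Tgfbr2, Acvr1b and Eng. The 250 bases before the start of Tgfb1 and of Tgfb2 are shown because their estimates for TGFβ had opposite signs in 6 of the 7 lines. Capitals mark CAGAC or its reverse complement GTCTG, the short element bound by SMADs, searched on both strands. The Tgfb2 window precedes a start that lies inside the annotated span of the gene.
Tgfb1, chr7:25686752-25687001, plus strand: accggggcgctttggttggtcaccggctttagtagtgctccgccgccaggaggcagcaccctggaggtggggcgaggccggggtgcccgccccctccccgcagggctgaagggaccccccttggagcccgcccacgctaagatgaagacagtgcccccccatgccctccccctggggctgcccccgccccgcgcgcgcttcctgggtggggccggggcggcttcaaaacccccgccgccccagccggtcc
Tgfb2, chr1:186705990-186706239, minus strand: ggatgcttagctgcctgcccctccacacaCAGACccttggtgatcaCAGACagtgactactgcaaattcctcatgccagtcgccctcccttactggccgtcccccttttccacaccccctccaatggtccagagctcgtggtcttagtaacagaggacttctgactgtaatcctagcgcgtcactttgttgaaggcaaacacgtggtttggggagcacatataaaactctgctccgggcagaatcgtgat
The Tgfb2 window holds 2 matches and the Tgfb1 window none. At least 1 match occurs in 42.2% of the 32851 promoter windows of the same length, and the share with 2 was not counted. Whether the matches bear on the responses was not tested. The Eng window also holds 2 matches, the Tgfbr2 window and 1 of the 2 Tgfbr1 windows hold 1 each, and the other Tgfbr1 window and the Acvr1b window hold none. The TCF/LEF letters CTTTGA, or TCAAAG on the other strand, occur in 13.8% of windows and the AP-1 letters TGANTCA in 6.75%, and neither was found in the windows of these 6 genes. GC content was 75.2% in the Tgfb1 window and 53.6% in the Tgfb2 window.

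Between 22.396 and 33.682 M reads were assigned to genes per sample, and 3 reads, taken as the floor of detection, correspond to 0.092 to 0.146 CPM. Among TGFβ targets, Ccn2 rose with TGFβ in 7 of 7 lines, Smad7 in 6 and Tgfbi and Pmepa1 in 2 each, while Skil had log2 estimates of 0.15 to 1.52. The Wnt target Axin2 rose with Wnt3a in 6 of 7 lines and was between 0 and 0.0791 CPM in the dm/- samples of the Wnt3a experiment. The library dm/fl untreated, Wnt3a experiment, replicate 1 stood apart, with a correlation of 0.83 with its replicate across genes. Its values also followed the GC content of the transcripts, with a Spearman correlation of 0.80 over 9477 genes, the highest of the 56 libraries. Over the Wnt3a experiment this correlation ranged from -0.62 to 0.80, and over the TGFβ experiment from -0.50 to 0.48. The epithelial markers Epcam, Cdh1, Krt8 and Krt18 were at 49.9 CPM or more in every sample, Cldn3 and Krt14 reached down to 14.9 and 7.99 CPM, and Cldn7 and Krt5 to 0.294 and 0 CPM. By contrast, Ptprc, Adgre1, Itgam, C1qa and Cd3e of blood cells stayed under 1 CPM throughout. Csf1r, the remaining blood marker, reached 530 CPM. Of the 6 fibroblast markers, Dpt and Lum stayed under 1 CPM in every sample and Dcn reached at most 3.49 CPM, while Pdgfra, Pdgfrb and Col3a1 varied between lines. Of the 6 endothelial markers only Cdh5, with up to 35.0 CPM, and Pecam1, with up to 1.44 CPM, exceeded 1 CPM in any sample.

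Levels in untreated cells were compared first, to ask how the lines differ in ligand and receptor transcripts without added cytokine. In these comparisons the mean of the 2 untreated conditions of a line was set against that of another line, on the log2(CPM + 1) scale, and a gene was called at an adjusted p of at most 0.05 (limma, Benjamini-Hochberg) and a change of at least 2-fold. The SE and p come from the spread of replicates within a condition, pooled over the 28 conditions. Differences between the 2 experiments of a line do not enter them. Of the 48 comparisons of the 8 genes between 6 lines and fl/fl, 20 were called, beside 18.9% of all gene and line pairs. Called genes numbered 4 of 8 in D164A/fl, 6 of 8 in D164A/-, 1 of 8 in deltaC/fl, 3 of 8 in deltaC/-, 3 of 8 in dm/fl and 3 of 8 in dm/-. Over all genes tested the corresponding shares were 16.2%, 18.9%, 16.6%, 23%, 21.1% and 17.9%. The count was 18 within the Wnt3a experiment and 13 within the TGFβ experiment, while the shares above are for both experiments together. Because bulk RNA was measured, fewer cells of a type and less RNA per cell cannot be told apart. Ranges that do not overlap are given as a description, since the share of all genes without overlap was not counted.

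**Figure D1:**
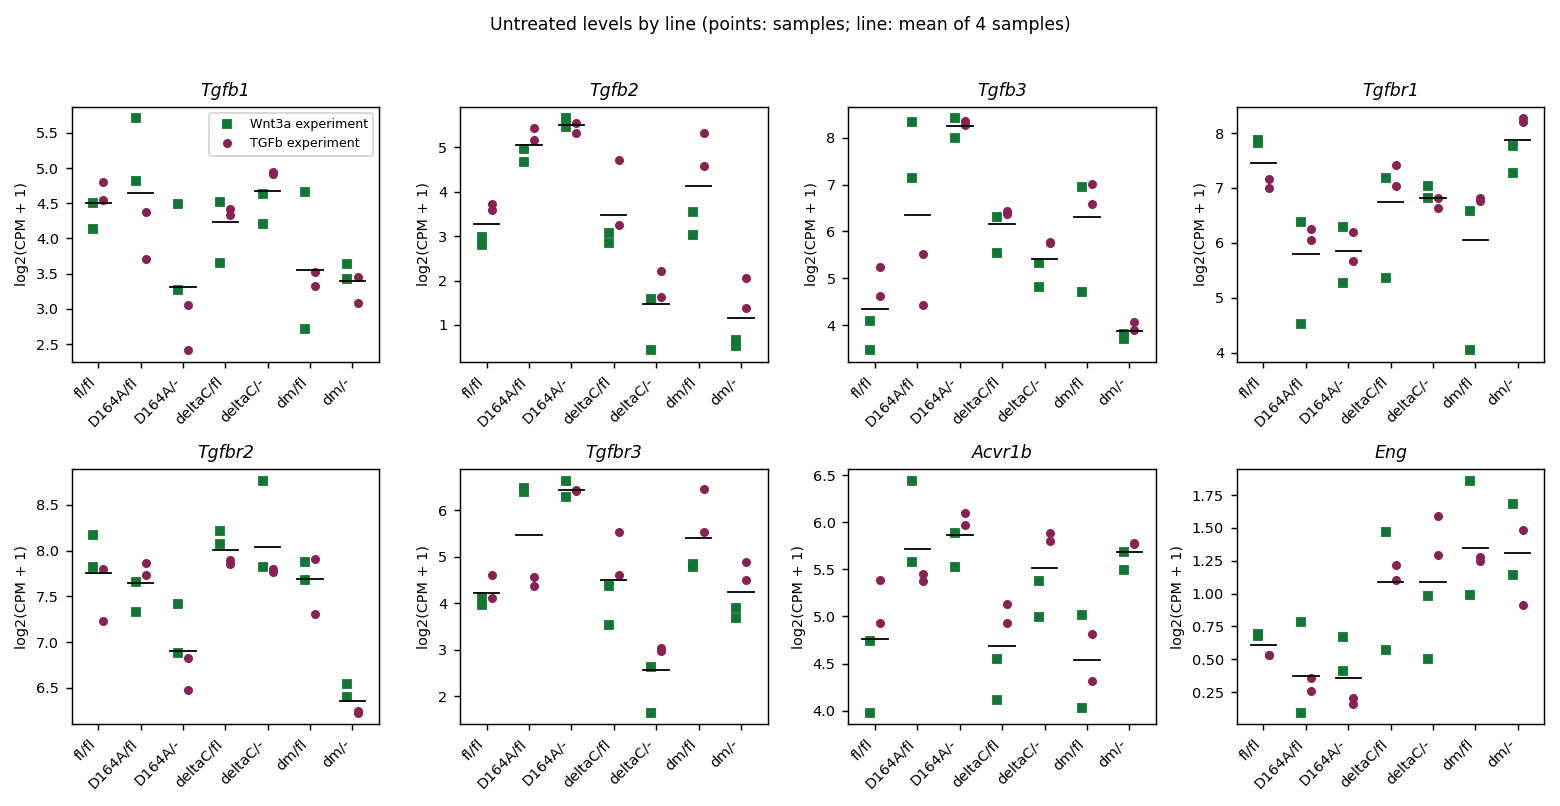
Untreated levels of the 8 genes in the 7 lines, as log2(CPM + 1). Points are samples of the Wnt3a (squares) or TGFβ (circles) experiment and the line is the mean of the 4 samples. Tgfb3 is highest in D164A/- cells, at 252 to 339 CPM, and in D164A/fl cells its 2 experiments separate.

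Tgfb3 differed widely between lines. In D164A/- cells it stood at 252 and 339 CPM in the Wnt3a experiment and at 306 and 325 CPM in the TGFβ experiment, and in fl/fl cells at 16.2 and 10.1 CPM and at 23.6 and 36.7 CPM. The 2 lines did not overlap, and D164A/- exceeded fl/fl by 3.89 ± 0.38 on the log2 scale (SE, adjusted p = 2.3e-10). deltaC/fl, at 45.7 to 85.4 CPM, exceeded fl/fl by 1.80 ± 0.38 (adjusted p = 0.000299), and dm/fl, at 25.1 to 128 CPM, by 1.96 ± 0.38 (adjusted p = 9.5e-05). These 3 calls held in each experiment alone. In the Wnt3a experiment, dm/fl held 122 CPM in the library that stands apart and 25.1 CPM in its replicate. Without that library the dm/fl difference was 1.40. The difference for deltaC/- of 1.06 ± 0.38 (adjusted p = 0.0233) was lost in each experiment alone and without any of 5 of its 8 libraries, which were both deltaC/- libraries of the TGFβ experiment, replicate 2 of deltaC/- and of fl/fl in the Wnt3a experiment and replicate 1 of fl/fl in the TGFβ experiment, with values of 0.90 to 1.06. D164A/fl samples held 139 and 321 CPM in the Wnt3a experiment, but 20.6 and 44.6 CPM in the TGFβ experiment. The excess of D164A/fl over fl/fl was therefore 3.95 in the former (adjusted p = 5.1e-07) and 0.04 in the latter (adjusted p = 0.982), and the averaged value of 2.00 ± 0.38 describes neither. From high to low, the order of the means was D164A/-, D164A/fl, dm/fl, deltaC/fl, deltaC/-, fl/fl and dm/-, and every line overlapped the next in range.

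Tgfb2 was high in the D164A lines and low in deltaC/- and dm/-, with overlap between neighbouring lines except for the gap between fl/fl and deltaC/-. It was at 38.9 to 49.3 CPM in D164A/- cells and at 24.7 to 42.1 CPM in D164A/fl cells. In fl/fl cells it was at 5.99 to 12.1 CPM, whereas deltaC/- held 0.347 to 3.65 CPM and dm/- 0.451 to 3.18 CPM, and neither overlapped fl/fl. Against fl/fl, Tgfb2 was higher in D164A/- by 2.23 ± 0.38 and in D164A/fl by 1.79 ± 0.38, and fell below it in deltaC/- (log2 difference -1.81 ± 0.38) and dm/- (-2.11 ± 0.38). The adjusted p of these 4 differences ranged from 1.4e-05 to 0.000339, and all 4 were called within each experiment. deltaC/fl, at 6.16 to 25.4 CPM, and dm/fl, at 7.21 to 39.1 CPM, overlapped fl/fl and were not called, although dm/fl was once the GC trend was removed (1.20 ± 0.37, adjusted p = 0.00842).

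Tgfb1 varied least among the ligand genes. Its 4 untreated samples lay at 16.5 to 26.9 CPM in fl/fl, 17.4 to 29.7 CPM in deltaC/-, 12.03 to 51.18 CPM in D164A/fl and 11.5 to 21.8 CPM in deltaC/fl. D164A/- cells, at 4.32 and 7.35 CPM in the TGFβ experiment and 8.68 and 21.5 CPM in the Wnt3a experiment, were below fl/fl by the log2 value of -1.19 ± 0.34 (adjusted p = 0.00579). This call was present in the TGFβ experiment alone (-1.94) and absent in the Wnt3a experiment alone (-0.44), and it was lost without D164A/- untreated, Wnt3a experiment, replicate 1 (-0.88, adjusted p = 0.0703). dm/- cells, at 7.496 to 11.39 CPM, did not overlap fl/fl and differed by -1.10 ± 0.34 (adjusted p = 0.0114), with -1.40 in the TGFβ and -0.79 in the Wnt3a experiment, of which the latter was not called. dm/fl differed by -0.94 ± 0.34 and was not called, but it was called without its library that stands apart (-1.43 ± 0.33, adjusted p = 0.000914), with the GC trend removed (-1.70, adjusted p = 5.3e-08), with a pseudocount of 0.1 (-1.01, adjusted p = 0.024), and without fl/fl replicate 2 of the Wnt3a or replicate 1 of the TGFβ experiment (-1.03 and -1.003).

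The type II receptor gene Tgfbr2 was among the more abundant of the 8 genes in every line and differed in dm/- cells. It lay at 74.1 to 92.2 CPM in dm/- and at 150 to 286 CPM in fl/fl, without overlap, a difference of -1.40 ± 0.21 (adjusted p = 2.1e-06) that was called within each experiment. D164A/- cells, at 88.2 to 170 CPM, were lower by -0.85 ± 0.21 (adjusted p = 0.00143), which is under 2-fold. The other 4 lines ranged from 157 to 435 CPM and were not called.

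The type I receptor gene Tgfbr1 ranged from 126 to 232 CPM in fl/fl and from 154 to 307 CPM in dm/-. D164A/fl held 21.8 to 82.2 CPM and D164A/- 37.8 to 76.7 CPM, and neither overlapped fl/fl. The differences were -1.66 ± 0.49 (adjusted p = 0.00882) and -1.60 ± 0.49 (adjusted p = 0.0103), and they became -1.45 ± 0.22 (adjusted p = 2.0e-06) and -1.55 ± 0.22 (adjusted p = 4.6e-07) once the GC trend of each library was removed. In the main fit both were called in the Wnt3a experiment alone and not in the TGFβ experiment alone (-0.93 and -1.14), and each was lost without replicate 2 of its own untreated cells in the Wnt3a experiment (-1.20 and -1.35, adjusted p = 0.0975 and 0.0619). Tgfbr1 transcripts are low in GC (43.4%), and in dm/fl the gene was at 15.5 CPM in the library that stands apart, against 94.3 CPM in its replicate. The call of dm/fl against fl/fl (-1.42 ± 0.49, adjusted p = 0.0212) was lost without that library (-0.78, adjusted p = 0.259), with the GC trend removed (-0.85), within the TGFβ experiment (-0.30), and without any of replicate 2 of fl/fl in either experiment or replicate 2 of dm/fl in the TGFβ experiment, with adjusted p of 0.051 to 0.0548.

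Acvr1b encodes the activin type I receptor. Its untreated samples ranged from 14.8 to 40.9 CPM in fl/fl and from 45.2 to 67.2 CPM in D164A/-, and the 2 lines did not overlap. The difference of 1.11 ± 0.25 (adjusted p = 0.000617) was the only 2-fold call against fl/fl, it dropped under 2-fold in the TGFβ experiment alone (0.87), and without replicate 2 of fl/fl in the Wnt3a or the TGFβ experiment (0.92 and 0.99). D164A/fl, deltaC/- and dm/- lay higher by 0.75 to 0.95, each with an adjusted p of at most 0.0156 but under 2-fold. For D164A/fl it was 1.65 in the Wnt3a experiment (adjusted p = 0.000557) and 0.25 in the TGFβ experiment (adjusted p = 0.715), and dm/- was called in the Wnt3a experiment alone (1.22, adjusted p = 0.0111). Without replicate 1 of fl/fl in either experiment, D164A/fl (1.14 and 1.07) and dm/- (1.11 and 1.03) were called, as was D164A/fl without its own replicate 1 of the Wnt3a experiment (1.17). The lines deltaC/fl and dm/fl overlapped fl/fl with differences of -0.08 and -0.22.

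The co-receptor gene Tgfbr3 followed an order close to that of Tgfb2 at its upper end. D164A/- cells held 76.3 to 98.4 CPM, against 14.7 to 23.5 CPM in fl/fl and 2.15 to 7.22 CPM in deltaC/-, with no overlap between these 3 lines. D164A/- exceeded fl/fl by 2.23 ± 0.32 (adjusted p = 8.6e-07), and deltaC/- differed by -1.63 ± 0.32 (adjusted p = 0.000106), with both calls present in each experiment. As for Tgfb3, the D164A/fl samples split by experiment, with 88.5 and 82.8 CPM in the Wnt3a experiment and 19.8 and 22.7 CPM in the TGFβ experiment. The averaged excess of D164A/fl of 1.25 ± 0.32 thus combined 2.38 (adjusted p = 0.000125) and 0.11 (adjusted p = 0.931). dm/fl, at 26.4 to 87.3 CPM, exceeded fl/fl by 1.19 ± 0.32 (adjusted p = 0.00354), but fell short of 2-fold without replicate 1 of its untreated cells in the TGFβ experiment (0.96) and in the Wnt3a experiment alone (0.76). Eng, the gene for the other co-receptor, was low in every line and came near the floor in the D164A lines. It ranged from 0.0675 to 3.16 CPM over the 56 samples, with 0.443 to 0.613 CPM in untreated fl/fl cells, and no difference between lines reached 2-fold on the log2(CPM + 1) scale. That scale understates changes of low genes, and edgeR on the whole reads called Eng higher than in fl/fl in dm/fl (1.60, adjusted p = 0.00766) and dm/- (1.54, adjusted p = 0.0112).

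On the scale of mean CPM per kb of exon, which allows levels of different genes to be compared, the median over the 7 untreated lines was 25.5 for Tgfbr2, 21.5 for Tgfb3, 17.3 for Tgfbr1 and 10.4 for Acvr1b. It was 3.77 for Tgfbr3, 3.62 for Tgfb1, 2.05 for Tgfb2 and 0.291 for Eng. With the length of the longest transcript in place of the union of exons, Tgfb1 moved to 7.08 and passed Tgfbr3 at 4.05. By exon length, Tgfb3 made up 40.0% to 59.4% of the summed level per kb of the 3 ligand genes in untreated fl/fl samples and 88.7% to 92.2% in D164A/- samples. In deltaC/fl it was 75.0% to 82.0%, in deltaC/- 68.0% to 71.7%, in dm/fl 71.5% to 85.6% and in dm/- 62.2% to 70.2%. In D164A/fl it was 81.0% to 86.1% in the Wnt3a experiment but 38.7% and 57.0% in the TGFβ experiment, where Tgfb2 took 46.2% and 26.2%. The leading ligand gene depended on the length used. With the longest transcript, Tgfb3 made up 27.7% to 45.9% in untreated fl/fl samples and Tgfb1 44.1% to 59.7%. In dm/- cells of the Wnt3a experiment Tgfb1 then took 51.0% to 52.6% and Tgfb3 46.1% to 47.8%, while in D164A/- cells Tgfb3 kept 84.8% to 90.2%. In dm/fl cells with TGFβ, Tgfb3 then took 33.9% to 39.4% and Tgfb1 53.6% to 60.0%, against 76.7% to 77.3% and 7.14% to 11.2% untreated.

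**Figure D2:**
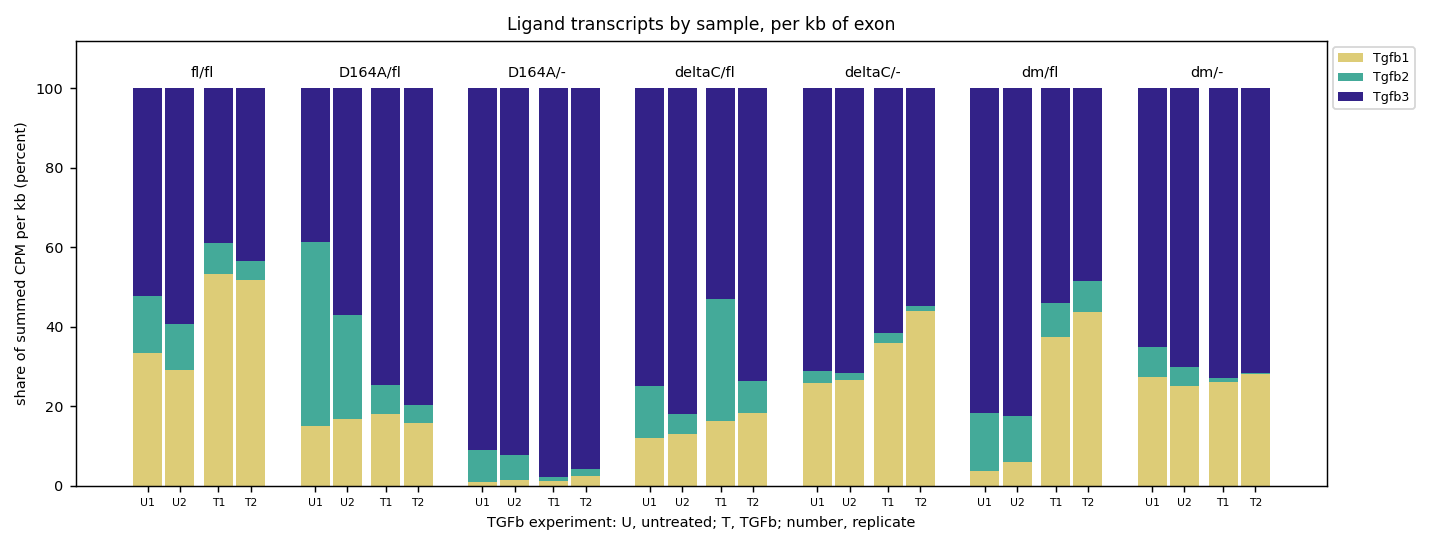
Share of each ligand gene in the summed CPM per kb of exon of the 3 ligand genes, in percent, for each sample of the TGFβ experiment (U, untreated, T, TGFβ, number, replicate). Tgfb3 exceeds 90% in all D164A/- samples, and in dm/fl cells its share is 81.6% and 82.4% untreated and 48.5% and 54.0% with TGFβ, values that are 76.7% to 77.3% and 33.9% to 39.4% by the longest transcript.

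The lines without the floxed allele were next compared with the floxed lines of the same mutation. Called genes numbered 10 of 24, beside 13.3% of all gene and line pairs, with 2 of 8 in D164A (9.45% of all genes), 2 of 8 in deltaC (12.2%) and 6 of 8 in dm (18.3%). In dm/- cells Tgfb2 was lower than in dm/fl by the log2 value of -2.96 ± 0.38 (adjusted p = 1.3e-07), Tgfb3 by -2.44 ± 0.38 (adjusted p = 3.8e-06), Tgfbr2 by -1.34 ± 0.21 (adjusted p = 4.2e-06) and Tgfbr3 by -1.16 ± 0.32 (adjusted p = 0.00498). Acvr1b was higher by 1.14 ± 0.25 (adjusted p = 0.000498) and Tgfbr1 by 1.84 ± 0.49 (adjusted p = 0.00348). Samples of the 2 dm lines did not overlap for 5 of these genes and overlapped for Tgfbr3, while the share of all genes without overlap was not counted. Without the library that stands apart, Tgfbr1 was no longer called (1.20, adjusted p = 0.0576) and the other 5 calls held, and within 1 experiment alone Tgfbr1 lost its call in the TGFβ experiment (1.46) and Tgfbr3 in the Wnt3a experiment (-1.02). The Tgfb3 value within the Wnt3a experiment (-2.06) includes 122 CPM in the library that stands apart, against 25.1 CPM in its replicate. Without dm/fl replicate 2 of the Wnt3a experiment Acvr1b fell short of 2-fold (0.89), and without dm/fl replicate 1 of the TGFβ experiment so did Tgfbr3 (-0.92). A fit on the 2 dm lines alone called neither Tgfbr1 (1.84, adjusted p = 0.0506) nor Tgfbr3 (-1.16, adjusted p = 0.0662).

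In deltaC/- cells Tgfb2 was lower than in deltaC/fl by -2.01 ± 0.38 (adjusted p = 0.000114) and Tgfbr3 by -1.93 ± 0.32 (adjusted p = 1.8e-05), without overlap and within each experiment. In D164A/- cells Tgfb3 was higher than in D164A/fl by 1.90 ± 0.38 (adjusted p = 0.000293), made up of 3.33 in the TGFβ experiment and 0.46 in the Wnt3a experiment. Tgfb1 was lower by -1.34 ± 0.34 (adjusted p = 0.00363), with -1.30 in the TGFβ experiment and -1.38 in the Wnt3a experiment, the latter not called alone (adjusted p = 0.125), and narrowly lost its call without D164A/- untreated, Wnt3a experiment, replicate 1 (-1.04, adjusted p = 0.0546). Tgfbr3 was higher by 0.98, under 2-fold, and was called by edgeR (1.01, adjusted p = 0.037), with a pseudocount of 0.1 (1.00, adjusted p = 0.0404), without D164A/- untreated, Wnt3a experiment, replicate 1 (1.07) and in the TGFβ experiment alone (1.94, against 0.02 in the Wnt3a experiment). Tgfbr2 was lower by -0.74 and was called in the TGFβ experiment alone (-1.14, adjusted p = 0.00403). The summed fibroblast markers also differed in these comparisons, mainly in deltaC and dm. Their summed level in untreated cells was 107 to 770 CPM in deltaC/fl and 6.45 to 8.37 CPM in deltaC/-, and 160 to 549 CPM in dm/fl and 5.44 to 10.1 CPM in dm/-. In D164A/fl it was 52.9 to 67.6 CPM, in D164A/- 67.6 to 102 CPM and in fl/fl 5.13 to 16.9 CPM. Dpt and Lum were under 1 CPM in all of these and Dcn at 3.49 CPM or less. The sums of deltaC/fl and dm/fl therefore rest on Pdgfra, Pdgfrb and Col3a1. In untreated D164A/fl and D164A/- samples 5 of the 6 markers were under 1 CPM, so those sums rest on Pdgfra. The part of these markers' cells in the differences was not tested.

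The question of the TGFβ experiment was how the ligand and receptor genes respond to their own pathway. Treated cells were compared with the untreated cells of the same experiment in each line, and 6 of the 56 gene and line pairs were called, all of them lower with TGFβ, beside 6.35% of all pairs. Called genes were 1 of 8 in fl/fl, 2 of 8 in D164A/- and 3 of 8 in dm/fl, beside 6.25%, 4.06% and 10.3% of all genes. In the main fit none of the 8 was called in D164A/fl, deltaC/fl, deltaC/- and dm/-, beside 3.38%, 7.74%, 6.55% and 6.12% of all genes. By contrast, edgeR called Tgfbr3 in deltaC/-, and a pseudocount of 0.1 gave that call and Tgfb2 in dm/-, but lost Tgfb2 in D164A/-. Without a correction for multiple tests, 16 of the 56 pairs had a p under 0.05, 5 higher and 11 lower, and edgeR on the whole reads called 5. With the GC trend removed, the count rose from 6 to 11. The share of 6.35% belongs to the main fit, and no share of all genes is given for these other counts.

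**Figure D3:**
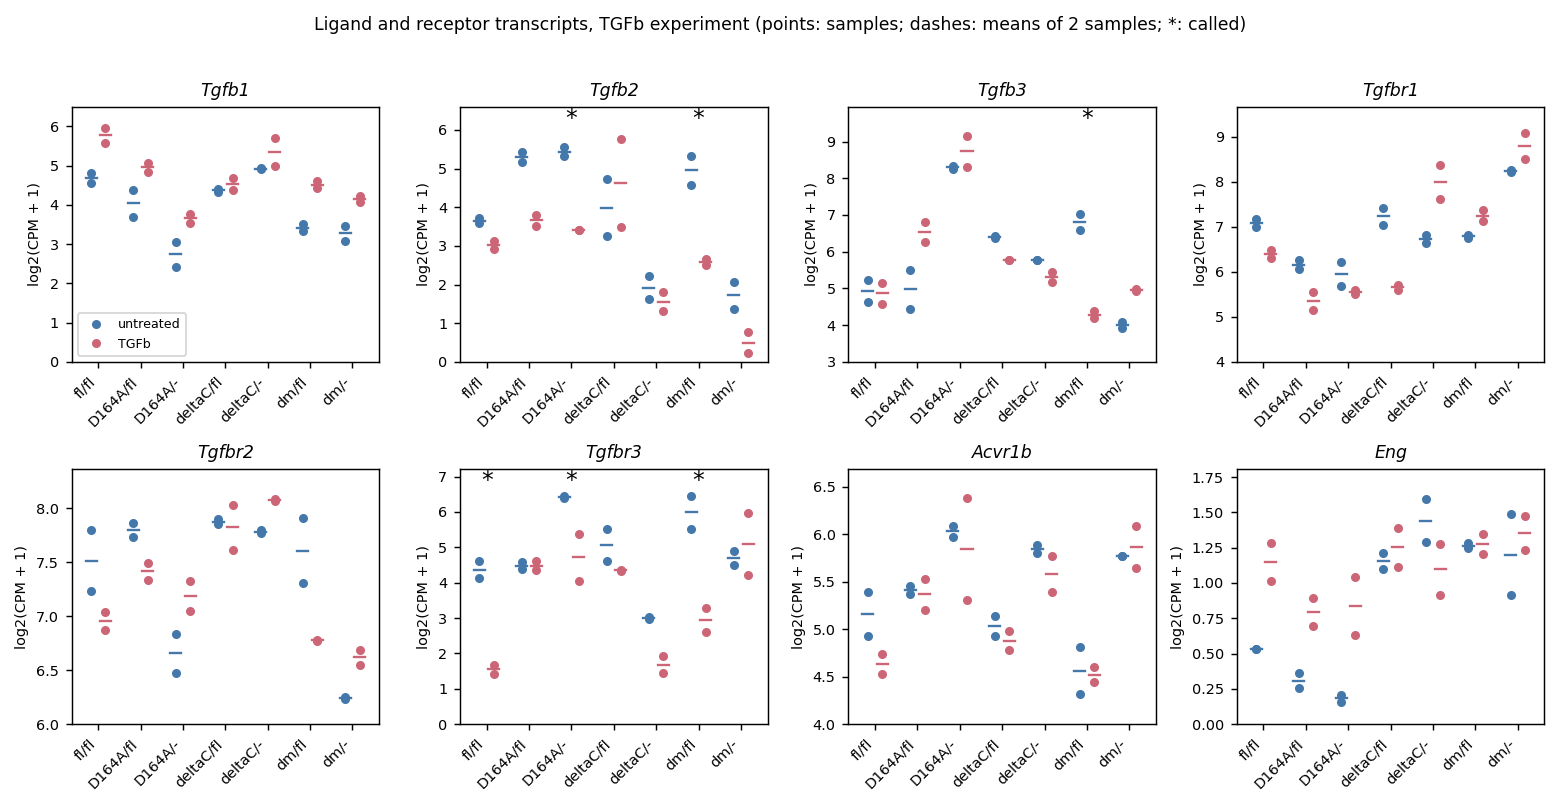
Levels of the 8 genes in the TGFβ experiment as log2(CPM + 1), by line. Points are samples, untreated in blue and with TGFβ in red, dashes are means of 2 samples, and asterisks mark called responses. The 6 asterisks are for Tgfbr3 in 3 lines, Tgfb2 in 2 lines and Tgfb3 in dm/fl.

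Tgfbr3 fell the most. In fl/fl cells it went from 16.4 and 23.5 CPM to 1.69 and 2.17 CPM, and in dm/fl cells from 87.3 and 45.2 CPM to 8.66 and 5.06 CPM. These falls were -2.82 ± 0.45 (adjusted p = 3.5e-05) and -3.06 ± 0.45 (adjusted p = 5.6e-06), and both were called without any 1 of their libraries. In D164A/- cells it went from 85.6 and 83.5 CPM to 40.4 and 15.6 CPM, a fall of -1.71 ± 0.45 (adjusted p = 0.018). That call was lost without replicate 1 or replicate 2 of the untreated cells (-1.69 and -1.73) or replicate 2 of the treated cells (-1.05). The call was also lost by edgeR (adjusted p = 0.0615) and in a fit on the D164A/- samples alone (adjusted p = 0.112). In deltaC/- cells values of 7.22 and 6.86 CPM stood against 2.78 and 1.70 CPM, a difference of -1.33 ± 0.45 that was not called (adjusted p = 0.0624) but was with the GC trend removed (adjusted p = 0.0472), by edgeR (-1.65, adjusted p = 0.0448) and with a pseudocount of 0.1 (-1.65, adjusted p = 0.0318). deltaC/fl samples were lower with TGFβ without overlap (-0.71 ± 0.45, adjusted p = 0.476), and D164A/fl (0.01) and dm/- (0.39) overlapped. Averaged over the 7 lines, the change was -1.32 ± 0.17 (adjusted p = 2.5e-07), and it stayed called without any 1 of the 28 libraries.

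In the main fit, Tgfb2 was called lower in 2 lines. It went from 39.1 and 22.8 CPM to 5.33 and 4.67 CPM in dm/fl (-2.37 ± 0.54, adjusted p = 0.00178) and from 46.2 and 38.9 CPM to 9.65 and 9.68 CPM in D164A/- (-2.02 ± 0.54, adjusted p = 0.0176). In D164A/fl, 42.1 and 35.1 CPM stood against 12.99 and 10.37 CPM, a difference of -1.65 ± 0.54 that was not called (adjusted p = 0.0786) but was in a fit on that line alone (adjusted p = 0.0206). In all 3 lines the treated samples lay below the untreated ones without overlap, as they also did in fl/fl (-0.63) and dm/- (-1.22), while deltaC/- (-0.36) and deltaC/fl (0.64) overlapped. The dm/- samples held 3.18 and 1.59 CPM untreated and 0.72 and 0.165 CPM with TGFβ, and on scales that compress low values less the difference was -2.34 (pseudocount of 0.1, adjusted p = 0.036) and -2.44 (edgeR, adjusted p = 0.0557). The dm/fl call was lost without replicate 1 of the untreated cells (-1.99, adjusted p = 0.0626), and the D164A/- call without any 1 of its 4 libraries (-1.90 to -2.14, adjusted p up to 0.19) and by edgeR (adjusted p = 0.0903). With dm/fl fitted on its own samples alone, Tgfb2 was not called either (adjusted p = 0.0969). A pseudocount of 0.1 also lost the D164A/- call (-2.12, adjusted p = 0.091). In deltaC/fl the replicates diverged, from 25.4 to 53.5 CPM in replicate 1 and from 8.51 to 10.2 CPM in replicate 2, although the replicate numbers are not stated to pair samples. Without TGFβ replicate 2 the deltaC/fl estimate was 1.78, a rise past 2-fold. The mean over the 7 lines was -1.09 ± 0.20 (adjusted p = 8.2e-05), and it fell short of 2-fold without deltaC/fl untreated replicate 1 (-0.98) or deltaC/fl TGFβ replicate 2 (-0.92).

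Tgfb3 had estimates of opposite sign between lines. In dm/fl it fell from 128 and 95.1 CPM to 19.9 and 17.2 CPM, by -2.51 ± 0.53 (adjusted p = 0.000855), which held without any 1 of its libraries but not in a fit on the 8 samples of that line alone (adjusted p = 0.22). In D164A/fl it was at 20.6 and 44.6 CPM untreated and at 76.6 and 111 CPM with TGFβ, and in dm/- at 15.86 and 14.04 CPM and at 29.7 and 30.4 CPM. These samples did not overlap, but the differences of 1.57 ± 0.53 and 0.96 ± 0.53 were not called (adjusted p = 0.098 and 0.361). The D164A/- samples were at 306 and 325 CPM without and 572 and 315 CPM with TGFβ, and the mean over the 7 lines was -0.10 ± 0.20 (adjusted p = 0.775).

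In dm/fl cells, where Tgfb2, Tgfb3 and Tgfbr3 fell, the summed fibroblast markers went from 326 and 549 CPM to 83.7 and 128 CPM and the summed endothelial markers from 0.218 and 0.319 CPM to 34.1 and 35.2 CPM. Of the endothelial markers, 5 of 6 were under 1 CPM in the treated samples, and Cdh5 accounted for the increase. The summed epithelial markers were at 1461 and 2044 CPM untreated and at 2017 and 2367 CPM treated. In fl/fl and D164A/-, the other lines with a called response, the fibroblast markers summed to 5.13 and 10.6 CPM and to 91.6 and 102 CPM untreated, and to 22.3 and 23.2 CPM and to 74.9 and 111 CPM treated. The blood marker Csf1r rose on the mean over the 7 lines (1.31, adjusted p = 3.6e-05) and was also called by edgeR, while the other 5 blood markers stayed under 1 CPM. In dm/fl Csf1r was at 336 and 430 CPM untreated and at 447 and 425 CPM with TGFβ, and in fl/fl at 56.1 and 72.2 CPM and at 165 and 215 CPM. The fibroblast marker Pdgfrb was called on the mean by edgeR and reached 0.78 with limma (adjusted p = 0.0271). The part of these markers' cells in the responses was not tested.

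Tgfb1 was higher with TGFβ in small steps. In fl/fl it was at 22.5 and 26.9 CPM untreated and at 46.8 and 61.7 CPM treated, and in dm/fl at 9.01 and 10.5 CPM and at 20.6 and 23.2 CPM. Treated samples exceeded untreated ones without overlap in 6 of 7 lines, deltaC/fl being the exception. The share of all genes separated in this way was not counted. No single line was called, with estimates of 0.16 to 1.10 and an SE of 0.48, although fl/fl and dm/fl were called once the GC trend was removed (1.08 and 1.33, adjusted p = 0.0142 and 0.00137). The mean over the 7 lines was 0.78 ± 0.18 (adjusted p = 0.00101), which is under 2-fold. Over all genes the median of this mean response was -0.02, and 2 of the 8 genes were called on it, Tgfb2 and Tgfbr3, beside 4.88% of all genes.

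Among the signaling receptors no response in a line was called in the main fit. Tgfbr1 had estimates of both signs, going from 171 and 130 CPM to 47.6 and 51.5 CPM in deltaC/fl and from 98.0 and 111 CPM to 332 and 196 CPM in deltaC/-. Neither pair overlapped. The differences of -1.57 ± 0.69 (adjusted p = 0.187) and 1.28 ± 0.69 (adjusted p = 0.327) were both called after the GC trend was removed, at -1.61 ± 0.31 (adjusted p = 0.00032) and 1.27 ± 0.31 (adjusted p = 0.00444). Tgfbr2 ranged from -0.83 ± 0.29 in dm/fl, where 240 and 157 CPM stood against 108 and 109 CPM (adjusted p = 0.06), to 0.53 ± 0.29 in D164A/-. Without untreated replicate 2 the dm/fl estimate was -1.13, past 2-fold. Acvr1b ranged from -0.53 to 0.09 with an SE of 0.35, and its samples overlapped in 5 of 7 lines. Eng lay between -0.35 and 0.66 with an SE of 0.30. In D164A/- it was at 0.154 and 0.114 CPM untreated, near the floor, and at 1.06 and 0.55 CPM with TGFβ. The log2(CPM + 1) scale understates changes of low genes. By edgeR on the whole reads, Eng estimates ran from -0.58 in deltaC/- to 2.53 in D164A/- (adjusted p = 0.0614), and no line was called. The mean responses of Tgfbr1, Tgfbr2, Acvr1b and Eng were -0.17, -0.09, -0.16 and 0.24, none of them called. By edgeR the mean response of Eng was 0.78 (adjusted p = 0.0234), which is under 2-fold and was not called.

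**Figure D4:**
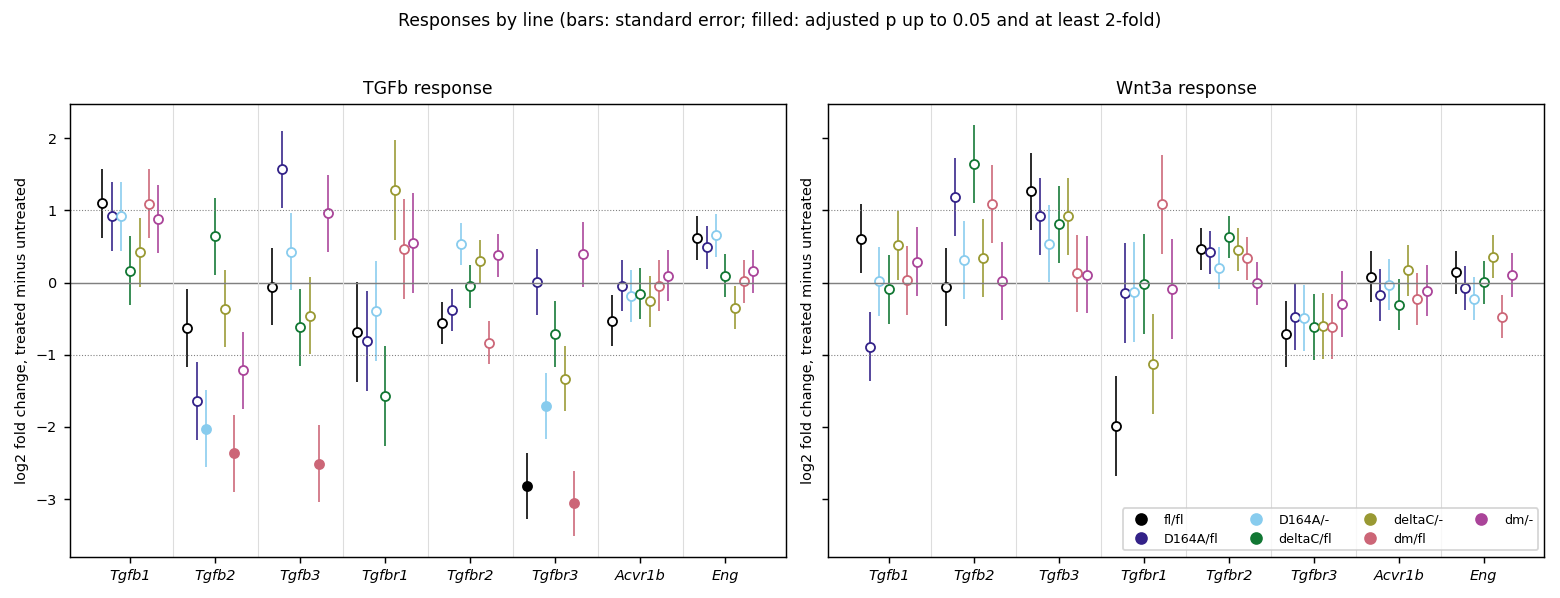
Responses of the 8 genes to TGFβ (left) and Wnt3a (right) in the 7 lines, as log2 fold change of treated minus untreated cells. Bars are standard errors, filled points were called and open points were not, and dotted lines mark 2-fold. Filled points occur for Tgfb2, Tgfb3 and Tgfbr3 with TGFβ, and there is none with Wnt3a.

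Whether the response to TGFβ differed among the lines was tested for each gene with an F test over the 6 differences from fl/fl. It was called for 3 of 8 genes at an adjusted p of at most 0.05, beside 18.3% of all genes. These were Tgfbr3 (adjusted p = 0.000288), Tgfb3 (adjusted p = 0.00269) and Tgfb2 (adjusted p = 0.0345), while Tgfbr2 reached an adjusted p of 0.0815. By edgeR, Tgfb2 was not called (adjusted p = 0.092). With limma, Tgfb2 was lost with a pseudocount of 0.1 (adjusted p = 0.132) and without any of 12 of the 28 libraries. Tgfbr1 and Tgfbr2 were also called after removal of the GC trend (adjusted p = 0.00014 and 0.0157).

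The Wnt3a experiment asked whether canonical Wnt signaling changes the same genes. In the main fit no response of the 8 genes was called in any line, 0 of 56 gene and line pairs, beside 0.862% of all pairs. By edgeR 0 were called as well, while a replicate block called 4, which are named at the end. A fit on the D164A/fl samples alone called 1, Tgfb2 (1.18, adjusted p = 0.0321). At an unadjusted p under 0.05 there were 5 pairs, 4 higher and 1 lower, and 4 pairs with edgeR. Shares of all genes called were 0.378% in fl/fl, 4.15% in D164A/fl, 0.654% in D164A/-, 0.225% in deltaC/fl, 0.0509% in deltaC/-, 0.574% in dm/fl and 0% in dm/-. In dm/- 29 genes had an unadjusted p under 0.05 and edgeR also called 0.

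**Figure D5:**
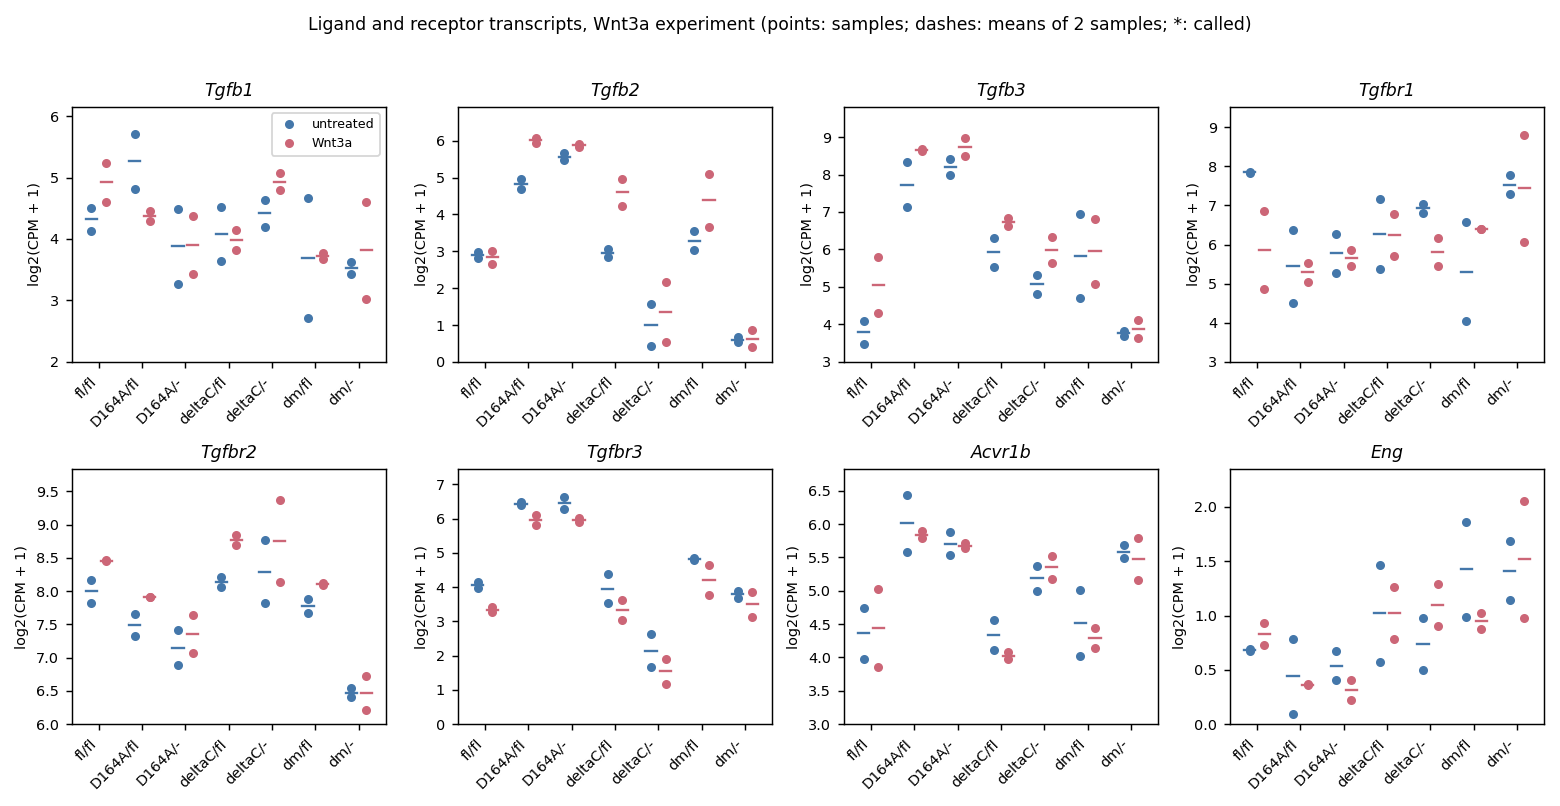
Levels of the 8 genes in the Wnt3a experiment as log2(CPM + 1), by line. Points are samples, untreated in blue and with Wnt3a in red, dashes are means of 2 samples, and called responses would carry an asterisk. No response is called, and in fl/fl Tgfbr1 is at 225 and 232 CPM untreated and at 28.3 and 114 CPM with Wnt3a.

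Tgfb2 was at 24.7 and 30.4 CPM in untreated D164A/fl cells and at 66.4 and 60.8 CPM with Wnt3a, and in deltaC/fl at 6.16 and 7.41 CPM and at 17.9 and 30.2 CPM. Neither pair overlapped, and the estimates were 1.18 ± 0.54 (adjusted p = 0.312) and 1.65 ± 0.54 (adjusted p = 0.497). In dm/fl, 7.21 and 10.7 CPM stood against 33.5 and 11.6 CPM, an estimate of 1.09 that became 0.83 without the library that stands apart. Tgfb3 estimates were above 0 in 7 of 7 lines, from 0.11 in dm/- to 1.27 in fl/fl, and treated samples exceeded untreated ones without overlap in 5 lines. Tgfbr3 estimates were below 0 in 7 of 7 lines, from -0.71 in fl/fl to -0.30 in dm/-, with separated samples in 4 lines. How many of all genes were separated like this was not counted. On the mean over the 7 lines none of the 8 was called, beside 0.494% of all genes, and 4 had an unadjusted p under 0.05 with limma and with edgeR. The means were 0.67 ± 0.20 for Tgfb3 (adjusted p = 0.0601), 0.65 ± 0.20 for Tgfb2 (adjusted p = 0.077), 0.36 ± 0.11 for Tgfbr2 (adjusted p = 0.0759) and -0.54 ± 0.17 for Tgfbr3 (adjusted p = 0.0808). Without the dm/fl library that stands apart, Tgfb3 reached 0.83 ± 0.18 (adjusted p = 0.00331), under 2-fold. Differences between lines were called for none of the 8 genes, beside 2.39% of all genes, with an unadjusted p under 0.05 for 0 genes by limma and 0 by edgeR.

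The lowest and highest Tgfbr1 estimates with Wnt3a went together with the GC trend of the libraries. In fl/fl the untreated libraries had GC correlations of -0.54 and -0.62 and the treated ones 0.50 and -0.32, and Tgfbr1 stood at 225 and 232 CPM and at 28.3 and 114 CPM. Its estimate of -1.98 ± 0.69 (adjusted p = 0.207) became -1.10 ± 0.31 with the trend removed (adjusted p = 0.0967). In dm/fl the estimate of 1.08 ± 0.69 became 0.19 ± 0.31, and -0.18 without the library that stands apart. Tgfb1 (-0.89 to 0.60), Tgfbr2 (-0.01 to 0.63), Acvr1b (-0.31 to 0.17) and Eng (-0.48 to 0.36) had estimates within 2-fold in every line.

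Other genes of the pathway were described by lists of fixed members. On the mean response to TGFβ, 3 of 12 tested genes for latency, activation and ligand binding were called by limma, all higher, beside 4.88% of all genes, and edgeR called 5 (Lrrc32, Ltbp2, Furin, Bgn and Itgb8). The median of the 12 was 0.50 beside -0.02 over all genes. The 3 were led by Lrrc32, which encodes GARP, a cell-surface anchor of latent TGFβ (2.16, adjusted p = 1.6e-08), and Ltbp2, a latent TGFβ binding protein family member (2.05, adjusted p = 1.1e-09). The third was Furin, a protease that cleaves TGFβ precursors (1.07, adjusted p = 0.00412), named after its value was seen. In deltaC/- cells Lrrc32 went from 31.3 and 25.7 CPM to 270 and 334 CPM, but in D164A/- from 1.74 and 0.343 CPM to 0.0882 and 0.55 CPM. Among co-receptors and receptor-level inhibitors, 2 of 9 tested genes were called higher by limma and by edgeR, Pmepa1 (1.20, adjusted p = 1.5e-06), an inhibitor that sequesters SMAD2 and SMAD3, and Vasn (1.01, adjusted p = 0.0123), which encodes a protein that binds TGFβ. In the list of SMADs and their partners it was 1 of 11 with either tool, the inhibitory Smad7 (1.31, adjusted p = 2.0e-10), and among the type I and type II receptors other than the 8 genes 0 of 7 by limma, with 3 at an unadjusted p under 0.05, and 1 of 7 by edgeR, Acvrl1. Pmepa1 and Smad7, like Skil of the SMAD list, are also TGFβ targets of the treatment checks, so their calls repeat those checks. With Wnt3a, 0 genes of these 4 lists were called on the mean by limma or by edgeR. Between 1 and 2 genes per list had an unadjusted p under 0.05 with limma.

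Over single lines, 20 of 84 pairs of genes for latency and activation were called with TGFβ, 15 higher and 5 lower, and 8 of 49 of the other receptors, all higher. The count was 5 of 63 for co-receptors and inhibitors and 8 of 77 for SMADs and partners, of which 6 were higher. These counts include the treatment checks Pmepa1, called higher in 2 lines, and Smad7, called higher in 6 lines. With Wnt3a the counts were 2 of 84, 1 of 49, 0 of 63 and 1 of 77. These shares stand beside 6.35% and 0.862% of all pairs.

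Genes most like each of the 8 were found by Pearson correlation of mean log2(CPM + 1) over the 28 conditions, which share libraries and lines, so the values are a description. Tgfb3 was most like Hykk (0.92) and Actn4 (0.91), Tgfb2 most like Adgrg6 (0.86) and Slc7a2 (0.86), and Tgfb1 most like Vasp (0.80) and Slc20a1 (0.78). Tgfbr3 was most like Trib2 (0.89) and Hlf (0.87), Tgfbr2 most like Nap1l4 (0.87) and Ergic1 (0.83), and Tgfbr1 most like Il13ra2 (0.81) and Cacul1 (0.81). Acvr1b was most like Mccc1 (0.93), and Eng most like Arl2 (0.91) and Naglu (0.90). Over the 14 untreated conditions alone, Slc7a2, Trib2, Cacul1 and Mccc1 were again among the 2 most alike, and the remaining genes were others.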

How the data were processed

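RNA-sequencing data of 28 conditions with 2 replicates each were analysed, grouped by the sample titles. Per the methods of the study, the authors sequenced stranded poly(A) libraries as single-end reads, aligned them with STAR to mm10 and counted reads in RefSeq genes with QuasR. The deposited values are a normalised expression signal per gene, here called CPM, scaled to the effective library size in place of the total. Whole reads were recovered from 100% of the values in every sample (tolerance 0.01 reads), and scaling factors ranged from 0.8093 to 1.1396. Assigned reads ranged from 22.396 to 33.682 M per sample, which sets a floor of 3 reads for counting error only.

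Values were analysed as log2(CPM + 1) in limma 3.58.1 (R 4.3.3), with 1 coefficient per condition and 28 residual degrees of freedom, for the 13754 genes that reached 1 CPM in 2 or more samples. P-values were adjusted over all genes tested by the Benjamini-Hochberg method, two-sided, and calls required an adjusted p no higher than 0.05 together with a 2-fold change. Differences among lines were tested with an F test at the same adjusted p. The fit was also run on simulated counts with the same dispersion for every gene, no GC trend and no differences between untreated lines. Those counts do not show how the fit behaves under the GC trends and uneven replicates of these libraries. The 8 genes and the pathway and marker lists were chosen with earlier results of these data known. All 8 were named, with the 2 most alike genes for each and the 2 called genes of each list with the largest mean response to TGFβ, and some genes that this rule or the treatment checks name are not reported here. Alternatives were a pseudocount of 0.1, no filter, edgeR 4.0.16 on the whole reads, median-of-ratios scaling, removal of each library's GC trend (lowess, span 0.3), a replicate block, fits on the compared lines or experiment alone, and each replicate left out. Levels within 1 experiment were added after seeing the data. Figures were drawn with matplotlib 3.10.9.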

Additional observations from a re-analysis of the deposited data

Results flagged for a closer look

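The response to TGFβ differed among the 7 lines for 3 of the 8 genes in the limma F test of the difference itself, beside 18.3% of all genes. By edgeR 2 of the 8 were called, and Tgfb2 was not (adjusted p = 0.092). The F test with a pseudocount of 0.1 also called 2, without Tgfb2 (adjusted p = 0.132). For Tgfbr3 the adjusted p was 0.000288, with responses from -3.06 in dm/fl to 0.39 in dm/- on the log2 scale. For Tgfb3 it was 0.00269, with responses from -2.51 in dm/fl to 1.57 in D164A/fl. For Tgfb2 it was 0.0345, with responses from -2.37 in dm/fl to 0.64 in deltaC/fl. The Tgfb2 result was lost without any of 12 of the 28 libraries (adjusted p 0.0511 to 0.16). These were untreated replicate 1 and TGFβ replicate 2 of D164A/fl, untreated replicate 1 and both TGFβ replicates of D164A/-, untreated replicate 2 and TGFβ replicate 1 of deltaC/fl and of deltaC/-, and untreated replicate 1 and both TGFβ replicates of dm/fl.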

How the results depend on the processing

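Over 3792 alternative values for the 216 gene comparisons, 69 lost a call, 72 gained one and 0 called values changed sign. The counts of the 8 genes below stand without shares of all genes under the same setting. A rise or fall in them therefore need not be particular to these genes. With the GC trend removed, 11 responses to TGFβ were called in place of 6, and 5 genes differed among lines in place of 3. In fits on the compared line or experiment alone, 4 responses to TGFβ were called in place of 6, and 1 response to Wnt3a in place of 0. In these fits 6 genes differed among lines in their response to TGFβ. Within the TGFβ experiment, 13 differences from fl/fl were called in place of 20. Leaving out 1 library at a time gave 4 to 8 called responses to TGFβ, 0 to 2 to Wnt3a, 18 to 22 differences from fl/fl and 9 to 10 between deleted and floxed lines. On the mean response to TGFβ it gave 1 to 2 genes and on that to Wnt3a 0 to 0, and for differences among lines 2 to 3 with TGFβ and 0 to 1 with Wnt3a. Both Wnt3a calls came without fl/fl Wnt3a replicate 2 (Tgfb3, 2.01, and Tgfbr1, -2.97), and Tgfbr1 was also called without dm/fl untreated replicate 2 (2.35), which also gave its difference among lines. The cause was not tested.

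Same-numbered samples are not stated to be paired, and the correlation of their deviations was over 0.1 in 12 of 14 pairs, from -0.197 to 0.932. With a replicate block, 12 responses to TGFβ and 4 to Wnt3a were called, the latter being Tgfb3 (1.27, adjusted p = 0.0186) and Tgfbr1 (-1.98, adjusted p = 0.0374) in fl/fl and Tgfb2 in D164A/fl (1.18, adjusted p = 0.0253) and deltaC/fl (1.65, adjusted p = 0.0192). With the block and the GC trend removed, it was 14 and 3, and 6 and 2 genes differed among lines. With the numbers of deltaC/- crossed in the block, chosen after seeing the data, 1364 genes responded to TGFβ in place of 901, 1 of them among the 8.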
